A study of Mus musculus with 2 samples.

Results

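Collagens are the main structural proteins of connective tissue, each built from 3 polypeptide chains wound around each other. Fibrillar types form the tensile fibres of the matrix, type IV forms the sheet of basement membranes, type VI forms beaded microfilaments around cells, and the fibril-associated types with interrupted helices, abbreviated FACIT, decorate fibre surfaces. In white fat the precursors and fibroblasts of the stroma make most fibrillar and type VI chains, while basement membranes surround adipocytes and vessels. All entries of the deposited gene table with a collagen chain symbol were taken, except types 2, 9 and 11, which are known from cartilage. This gave 38 chains of 24862 listed genes, namely 8 fibrillar, 6 basement membrane, 6 beaded, 6 FACIT and 12 other chains.

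The measurements were RNA sequencing of polyA-selected RNA of GFP+ cells sorted out of inguinal stromal vascular cells, that is the cells that remain when mature adipocytes are removed from a collagenase digest of a subcutaneous fat pad. The 2 groups were Sox9 PreASKO mice, also titled KO, and Sox9 floxed mice, also titled WT, with 1 library each. All mice were male, 3 weeks old and treated with doxycycline on day 1 after birth, and GFP+ cells of both groups are equated with Pref-1+ cells, early adipose precursors. The labels name no other allele, do not say which promoter drives recombination or GFP, and do not say whether floxed controls carry the driver. Each library pooled mice (given as 6 pooled, without saying whether per genotype), so no difference has a replicate check and no p-value was computed. The PreASKO library held 29172653 counts and the floxed library 37705236 counts.

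Levels are counts scaled to a common library total (CPM) and ratios are of CPM in PreASKO over floxed cells. Bounds in parentheses are exact 95% limits of a level or ratio and reflect counting error alone. Sox9, the targeted gene, stood at 2.50 CPM in PreASKO cells and 6.05 CPM in floxed cells, a ratio of 0.414 (0.314 to 0.541). Reads from any exon count, so this is a partial check of the deletion. The labelled cell type was accompanied by others. Stromal and adipose precursor markers, a list of 15 genes without collagens, summed to 5905 CPM in PreASKO and 10160 CPM in floxed cells. Macrophage and myeloid markers summed to 16523 CPM in PreASKO and 10652 CPM in floxed cells, with all 12 listed genes higher in PreASKO and none at 0 in either library. In such bulk libraries, fewer cells of a type and less RNA per cell cannot be told apart.

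Collagen transcripts held 1.96% of the PreASKO library and 3.33% of the floxed library, summed over all 38 chains. The ratio of the sums was 0.589 (0.587 to 0.591) when scaled to library totals, but 1.01 when collagen counts were divided by the counts of the stromal marker list, so the lower level did not hold on that scale. Per stromal marker count there were 3.32 collagen counts in PreASKO cells and 3.27 in floxed cells. With Dcn left out of the stromal list, the ratio was 0.928 in place of 1.01. The lower collagen share thus accompanied a stromal list whose own sum had a ratio of 0.581 (0.578 to 0.585). The part that the stromal content of the pools plays in the collagen difference was not tested.

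Of the 38 chains, 24 had 100 or more counts in the larger library, 9 had 10 to 99 counts and 5 had fewer. Among the 24, 22 were lower in PreASKO with intervals wholly below 1, under library-total scaling. By the same rule 39.7% of the 12982 genes at or above that limit were lower. Of the 22 chains, Col20a1 passed the limit only through the floxed library. Only Col4a6 had an interval wholly above 1, against 37.2% of genes, and Col8a1 spanned 1. The 24 chains had a median log2 ratio of -0.68, against -0.02 over all 12982 genes. More than 2-fold lower were Col4a5, Col28a1 and Col5a1, that is 3 of 24 beside a background of 8.0% of genes, and more than 2-fold higher was Col4a6, 1 of 24 beside 3.40%. With TMM or median-of-ratios scaling, Col5a1 was no longer more than 2-fold lower, at log2 ratios of -0.995 and -0.985, which left 2 of 24. The collagen difference was therefore moderate in size and broad across chains. At a limit of 1000 counts, 19 of 19 chains had a ratio below 1, beside 46.9% of genes, and 2 were more than 2-fold lower, beside 2.13%. Of the 19, Col4a5, Col27a1 and Col6a5 reached that limit only in the floxed library. Col4a5 was also among the 2 chains more than 2-fold lower. At a limit of 10 counts, 8 of 33 chains were more than 2-fold lower, beside 18.2% of genes, and 2 more than 2-fold higher, beside 9.08%. Of those 8, Col4a3, Col4a4, Col24a1, Col17a1 and Col8a2 reached 10 counts only in the floxed library. Scaled to the stromal list, 10 of the 24 were lower and 14 higher, with all genes then shifted to a median log2 ratio of 0.76.

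**Figure D1:**
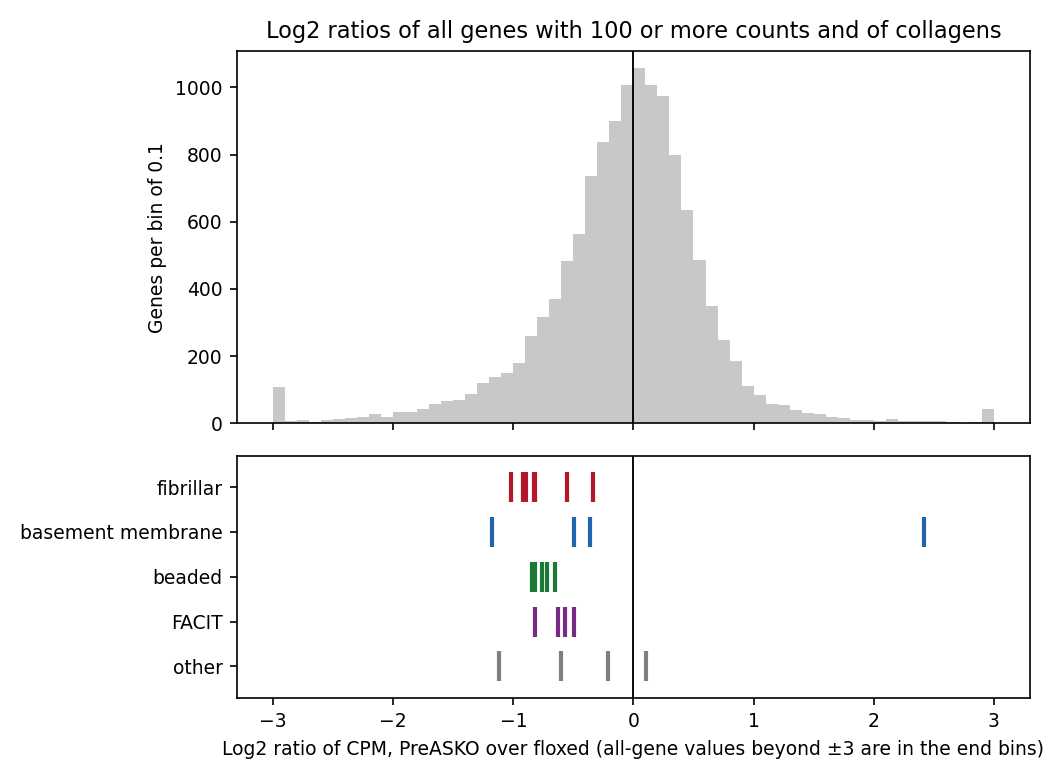
Log2 ratio of CPM, PreASKO over floxed, for all 12982 genes whose larger library gave at least 100 counts (top, genes per bin) and for the 24 collagen chains that passed the same limit (bottom, 1 tick per chain, by class). The gene distribution centres near 0, whereas 22 of the 24 ticks lie below it under library-total scaling, and 10 of 24 do when scaled to stromal markers, which is not drawn.

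Among fibrillar chains, the building blocks of banded fibres, 3 genes carried most of the signal. Col1a1 and Col1a2, the chains of type I collagen, and Col3a1, the chain of the type III homotrimer, together made up 79.1% of collagen counts in PreASKO cells and 80.0% in floxed cells. Col1a2 had 173509 counts in PreASKO and 397685 in floxed cells, at levels of 5948 CPM in PreASKO and 10547 CPM in floxed cells, a ratio of 0.564 (0.561 to 0.567). Col3a1 stood at 5270 CPM in PreASKO and 9772 CPM in floxed cells, with a ratio of 0.539 (0.536 to 0.543). Col1a1 stood at 4289 CPM in PreASKO and 6290 CPM in floxed cells, with a ratio of 0.682 (0.677 to 0.687). Col1a1 thus differed less than its partner chain. Scaled to the stromal list, Col1a1 was higher in PreASKO, with a log2 ratio of 0.23.

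Col3a1 lies on chromosome 1 (45311538 to 45349706, GRCm38), Col1a2 on chromosome 6 (4505618 to 4541543), Col1a1 on chromosome 11 (94936224 to 94953042) and Col6a1 on chromosome 10 (76708792 to 76726044). The bases before the annotated start of 4 chains are shown, namely Col3a1, Col1a2 and Col6a1, abundant chains that were lower under library-total scaling, and Col4a5, which had the lowest ratio of the 19 chains with 1000 or more counts. Sequences are from RefSeq on GRCm38.p6, reading 5′ to 3′ on the gene's own strand and ending before the first annotated base of the gene. Capitals mark a CCAAT box (CCAAT, or ATTGG for the other strand) or a SOX-type hexamer (ACAAAG or ACAATG, or CTTTGT or CATTGT for the other strand).
Col3a1, chr1:45311288-45311537, plus strand: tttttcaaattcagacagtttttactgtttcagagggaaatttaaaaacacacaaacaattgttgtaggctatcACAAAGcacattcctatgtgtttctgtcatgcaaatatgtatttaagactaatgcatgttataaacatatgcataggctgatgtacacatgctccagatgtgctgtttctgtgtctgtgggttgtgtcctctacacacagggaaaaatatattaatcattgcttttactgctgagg
Col1a2, chr6:4505368-4505617, plus strand: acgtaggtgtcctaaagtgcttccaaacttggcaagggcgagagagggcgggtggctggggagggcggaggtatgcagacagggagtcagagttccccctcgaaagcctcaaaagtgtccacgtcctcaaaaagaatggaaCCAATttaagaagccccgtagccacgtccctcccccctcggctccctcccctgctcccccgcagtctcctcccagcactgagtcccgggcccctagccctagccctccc
Col6a1, chr10:76726045-76726294, minus strand: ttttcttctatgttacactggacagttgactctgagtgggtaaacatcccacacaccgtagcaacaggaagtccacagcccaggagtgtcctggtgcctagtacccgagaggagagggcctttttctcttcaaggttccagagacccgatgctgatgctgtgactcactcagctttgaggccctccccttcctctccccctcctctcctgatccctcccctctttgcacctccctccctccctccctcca
Col4a5, chrX:141475169-141475369, plus strand: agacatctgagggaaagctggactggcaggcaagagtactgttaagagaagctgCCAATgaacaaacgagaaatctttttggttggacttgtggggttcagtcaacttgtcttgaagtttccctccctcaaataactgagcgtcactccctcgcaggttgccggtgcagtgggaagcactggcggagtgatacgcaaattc
The Col3a1 stretch holds 1 SOX-type hexamer, the Col1a2 and Col4a5 stretches 1 CCAAT box each and the Col6a1 stretch neither. Over the 33 promoter windows of 300 bases found for 31 chains, SOX-type hexamers occurred in 5 windows, or 15.2%, against 28.6% of all 32851 windows of that length. CCAAT boxes occurred in 11, or 33.3%, against 37.4% of all windows, and GC boxes (GGGCGG, or CCGCCC for the other strand) in 20, or 60.6%, against 35.7%. The letters of none of these motifs contain those of another. Matches of letters are descriptions and not binding sites.

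The minor fibrillar chains spread more widely than the major ones. Type V collagen sits inside type I fibrils and sets their diameter. Its chain gene Col5a1 stood at 260.9 CPM in PreASKO and 529.6 CPM in floxed cells, a ratio of 0.493 (0.480 to 0.506), the lowest of the 7 fibrillar chains with 100 or more counts. Its partner Col5a2 stood at 192.1 CPM in PreASKO and 339.7 CPM in floxed cells, with a ratio of 0.566 (0.548 to 0.584). Col5a3, another type V chain, differed least, at 71.6 CPM in PreASKO and 90.3 CPM in floxed cells, a ratio of 0.794 (0.751 to 0.838), and turned to a log2 ratio of 0.47 in raw counts alone. Col27a1, a fibrillar chain best known from cartilage, stood at 16.3 CPM in PreASKO and 30.8 CPM in floxed cells, with a ratio of 0.528 (0.474 to 0.588). Col24a1 had 7 counts in PreASKO and 31 in floxed cells, too few for more than a ratio of 0.292 (0.109 to 0.676).

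**Figure D2:**
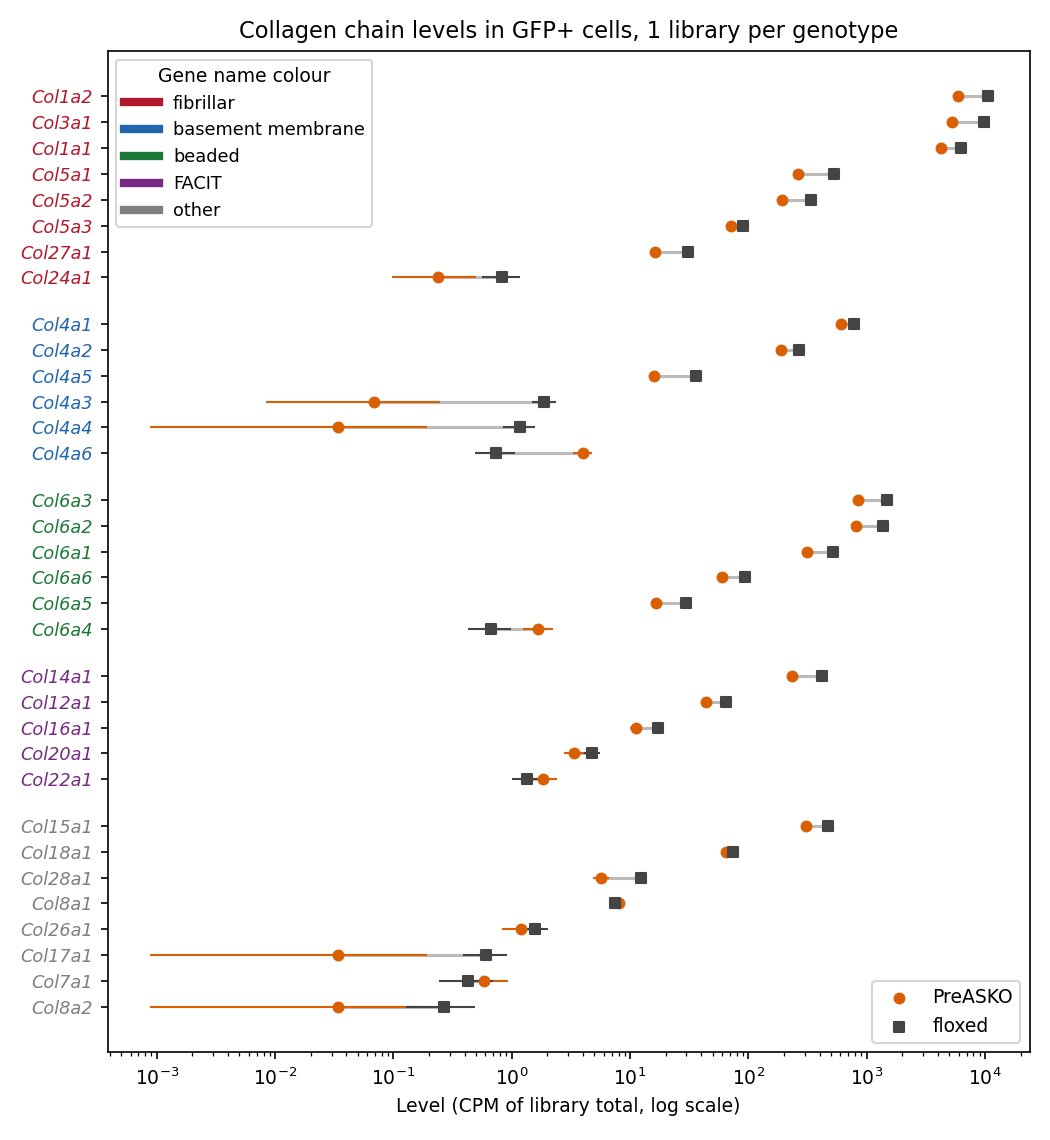
CPM (log axis) of the 33 collagen chains whose larger library gave at least 10 counts, grouped by class, with PreASKO as circles, floxed as squares and coloured lines for exact 95% Poisson intervals. PreASKO circles lie left of floxed squares for most chains under this library-total scaling, and the circle lies far to the right for Col4a6 at 3.98 CPM in PreASKO and 0.743 CPM in floxed cells.

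Type VI collagen forms beaded filaments from Col6a1, Col6a2 and another chain, usually Col6a3, and is abundant around fat cells. The 5 beaded chains with 100 or more counts had ratios between 0.556 and 0.637. Col6a3 stood at 843.3 CPM in PreASKO and 1485 CPM in floxed cells, with a ratio of 0.568 (0.559 to 0.576). Its log2 ratio was -1.47 in raw counts alone, which held only 67 of its counts in PreASKO and 247 in floxed cells, against -0.82 in the summed counts. Col6a2 stood at 818.8 CPM in PreASKO and 1386 CPM in floxed cells, with a ratio of 0.591 (0.582 to 0.600). Col6a1 stood at 313.5 CPM in PreASKO and 515.2 CPM in floxed cells, with a ratio of 0.609 (0.594 to 0.624). Of the chains that can take the place of Col6a3, Col6a6 and Col6a5 had ratios in the same range. The level of Col6a6 was 59.4 CPM in PreASKO and 93.3 CPM in floxed cells, with a ratio of 0.637 (0.601 to 0.674), and that of Col6a5 was 16.6 CPM in PreASKO and 29.8 CPM in floxed cells, with a ratio of 0.556 (0.499 to 0.619). Col6a4, a low-level member, went the other way, with 49 counts in PreASKO and 25 in floxed cells, a ratio of 2.53 (1.54 to 4.28). Its raw counts were 32 in PreASKO and 8 in floxed cells, whereas its repeat-distributed counts were 17 in each library. Col6a4 lies next to Col6a5 on chromosome 9, with 27854 bases between the genes. The class summed to 2053 CPM in PreASKO and 3510 CPM in floxed cells, a ratio of 0.585 (0.579 to 0.591), and 1.01 when scaled to stromal markers.

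Basement membrane chains differed less in sum and more between members. The 6 chains summed to 814.7 CPM in PreASKO and 1083 CPM in floxed cells, a ratio of 0.752 (0.740 to 0.765), against 0.582 (0.580 to 0.584) for fibrillar chains. The basement membrane ratio was 1.29 times the fibrillar one (1.27 to 1.32), a quotient that no library scaling can move. Scaled to the stromal list the basement membrane sum was higher in PreASKO, with a ratio of 1.29. Endothelial cells and mural cells also make type IV collagen. The 9 endothelial markers summed to 862.1 CPM in PreASKO and 770.7 CPM in floxed cells, with single ratios between 0.656 and 1.70, and the 8 mural markers to 305.8 CPM in PreASKO and 482.3 CPM in floxed cells, with single ratios between 0.485 and 0.979. None of either list was at 0 in either library, and their part in the type IV values was not tested.

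Col4a1 and Col4a2 encode the ubiquitous type IV trimer, and their gene spans meet head to head on chromosome 8 with an overlap of 85 bases. Col4a1 stood at 605.9 CPM in PreASKO and 776.4 CPM in floxed cells, with a ratio of 0.780 (0.766 to 0.795). Col4a2 stood at 188.7 CPM in PreASKO and 266.2 CPM in floxed cells, with a ratio of 0.709 (0.686 to 0.732). Both paired genes were lower under library-total scaling and higher on the stromal scale, where the log2 ratio was 0.43 for Col4a1 and 0.29 for Col4a2. Reads in the shared stretch could be counted for either gene, as the counting was not stated to use strand.

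Another head-to-head pair diverged. Col4a5 and Col4a6, chains of a restricted type IV network known from smooth muscle and epithelial basement membranes, are separated by 1274 bases on chromosome X. Col4a5 had 468 counts in PreASKO and 1368 in floxed cells, at levels of 16.0 CPM in PreASKO and 36.3 CPM in floxed cells, a ratio of 0.442 (0.397 to 0.492). Col4a6 had 116 counts in PreASKO and 28 in floxed cells, at levels of 3.98 CPM in PreASKO and 0.743 CPM in floxed cells, a ratio of 5.36 (3.52 to 8.41). Its log2 ratio of 2.42 became 1.51 on the log2(CPM + 1) scale. Col4a6 passed the limit of 100 counts only through the PreASKO library, where it was high. All counts of both genes were of the repeat-distributed kind, so neither has a check from raw counts. Per kilobase of transcript, Col4a6 stood at 0.244 of Col4a5 in PreASKO cells (0.197 to 0.299) and at 0.0201 in floxed cells (0.0133 to 0.0292).

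Col4a3 and Col4a4, chains of the type IV network of kidney, lung and a few other sites, were nearly at 0 in PreASKO. Col4a3 had 2 counts in PreASKO and 71 in floxed cells, a ratio of 0.0364 (0.00433 to 0.136). Col4a4 had 1 count in PreASKO and 44 in floxed cells, a ratio of 0.0294 (0.000727 to 0.172). These neighbours on chromosome 1 overlap by 114 bases. All of the Col4a3 counts were raw and all of the Col4a4 counts repeat-distributed. Mesothelial markers were also far lower, with all 9 below a ratio of 1, beside 51.5% of the 12982 genes past the main count limit. They summed to 4.97 CPM in PreASKO and 173.6 CPM in floxed cells, a ratio of sums of 0.0286 (0.0241 to 0.0338). Of the 9, 8 passed that limit, all only through the floxed library, where they were high. Krt18 did not pass, with 3 counts in PreASKO and 59 in floxed cells. The highest PreASKO count of the list was 64, for Lrrn4. Msln, which encodes mesothelin, had 4 counts in PreASKO and 1104 in floxed cells. Their part in the values of Col4a3 and Col4a4 was not tested.

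**Figure D3:**
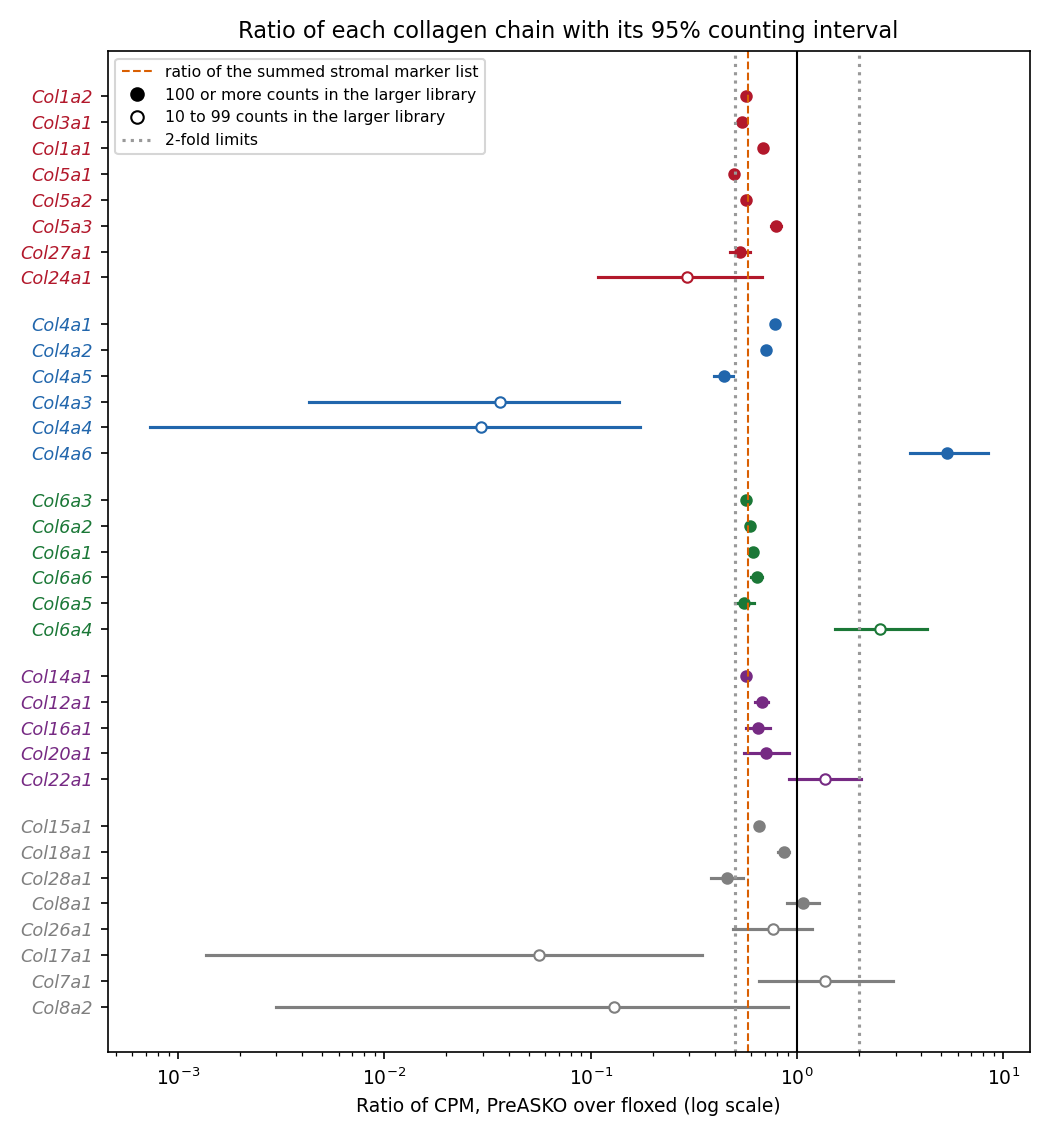
Ratio of CPM, PreASKO over floxed (log axis), of the same 33 chains with exact 95% counting intervals, filled where the larger library had at least 100 counts and open where it had 10 to 99. Most chains cluster near the dashed line at 0.581, the ratio of the summed stromal markers. Col4a3, Col4a4, Col17a1 and Col8a2 lie far below it and Col4a6 and Col6a4 above 2.

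FACIT chains, which link fibrils to the surrounding matrix, were lower in sum to the degree of the fibrillar chains under library-total scaling, with a ratio of 0.586 (0.572 to 0.602), and 1.01 on the stromal scale. Col14a1, which binds fibril surfaces and is typical of loose connective tissue, took most of the class, at 235.5 CPM in PreASKO and 415.8 CPM in floxed cells, a ratio of 0.566 (0.550 to 0.583). Col12a1, a related chain of dense connective tissue, stood at 43.6 CPM in PreASKO and 64.8 CPM in floxed cells, with a ratio of 0.673 (0.628 to 0.720). Col16a1 stood at 11.2 CPM in PreASKO and 17.2 CPM in floxed cells, with a ratio of 0.648 (0.566 to 0.742). The remaining FACIT chains were scarce. Col20a1 had 99 counts in PreASKO and 180 in floxed cells, with a ratio of 0.711 (0.551 to 0.913), Col22a1 had 54 in PreASKO and 51 in floxed cells, with an interval that spans 1 (0.916 to 2.05), and Col19a1 had 2 in PreASKO and 0 in floxed cells, where the exact limits of the level reach 0.0978 CPM.

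Of the other chains, Col15a1 and Col18a1 are related proteins of the basement membrane zone, and a C-terminal fragment of the Col18a1 product is endostatin, an inhibitor of vessel growth. Col15a1 stood at 308.8 CPM in PreASKO and 470.3 CPM in floxed cells, with a ratio of 0.657 (0.640 to 0.674). Col18a1 stood at 64.4 CPM in PreASKO and 74.8 CPM in floxed cells, with a ratio of 0.861 (0.812 to 0.913), the closest to 1 of the 19 chains with 1000 or more counts. Both were higher in PreASKO on the stromal scale, with log2 ratios of 0.18 and 0.57 for Col15a1 and Col18a1. Col8a1, a short chain of vessel walls and other sites, was level within counting error, at 8.06 CPM in PreASKO and 7.51 CPM in floxed cells, a ratio of 1.07 (0.899 to 1.28). Its partner Col8a2 had 1 count in PreASKO and 10 in floxed cells.

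Col28a1, known in mice from glia of peripheral nerves, had 167 counts in PreASKO and 470 in floxed cells, a ratio of 0.459 (0.383 to 0.549). Col17a1, a transmembrane chain that anchors basal epithelial cells, had 1 count in PreASKO and 23 in floxed cells, a ratio of 0.0562 (0.00136 to 0.346). The 7 basal epithelial markers summed to 40.5 CPM in PreASKO and 62.0 CPM in floxed cells, most of it from Itgb4, with 1165 counts in PreASKO and 2002 in floxed cells. The other markers were scarce and mixed. The keratin gene Krt14 had 1 count in PreASKO and 279 in floxed cells, but its partner Krt5 had 3 in PreASKO and 1 in floxed cells, and Epcam had 12 in PreASKO and 17 in floxed cells, a ratio whose interval spans 1 (0.398 to 2.03). Cdh1 had 1 count in PreASKO and 18 in floxed cells, and Trp63 and Dsp were at 0 in PreASKO, against 17 and 3 counts in floxed cells. The part of these cells in the Col17a1 value was not tested. Col7a1, the anchoring fibril chain of skin, had 17 counts in PreASKO and 16 in floxed cells, and Col26a1 had 35 in PreASKO and 59 in floxed cells, both with intervals that span 1. Col23a1 (3 in PreASKO, 7 in floxed), Col13a1 (0 in PreASKO, 5 in floxed), Col25a1 (0 in PreASKO, 1 in floxed) and Col10a1 (2 in PreASKO, 1 in floxed) were too scarce to compare.

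**Figure D4:**
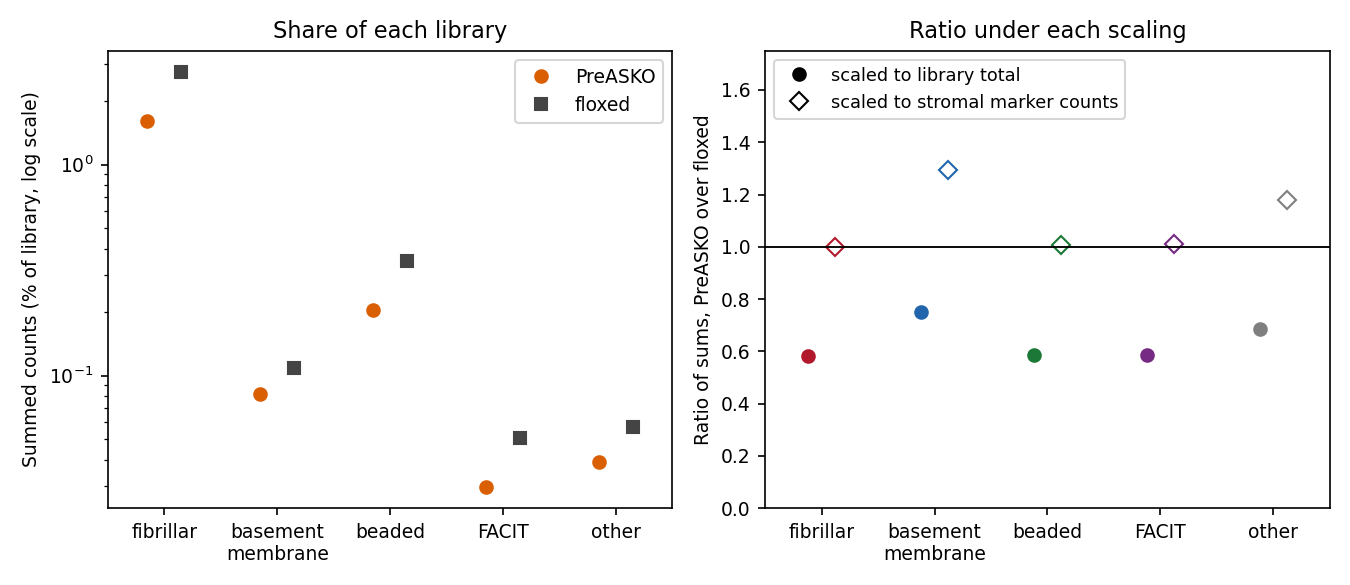
Left, summed counts of each class as percent of the library (log axis), PreASKO left of floxed. Right, ratio of the class sums, PreASKO over floxed, scaled to library total (filled) or to stromal marker counts (open): fibrillar, beaded and FACIT sums move to 1.0, 1.01 and 1.01 on the stromal scale and basement membrane and other chains to 1.29 and 1.18. With Dcn left out of the stromal list, which is not drawn, these are 0.916, 0.921, 0.924, 1.185 and 1.08 in the same order.

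Per kilobase of transcript, the order of the leading chains was Col1a2, Col3a1, Col1a1 and Col6a2 in both libraries. Their levels were 1112, 947.1, 723.3 and 176.0 CPM per kilobase in PreASKO and 1972, 1756, 1061 and 297.8 CPM per kilobase in floxed cells. Col4a1 was the fifth in PreASKO, at 91.6 CPM per kilobase, and the seventh in floxed cells, at 117.4 CPM per kilobase, with Col6a3 and Col6a1 changing places with it. The lengths are those of the longest coding transcript in GENCODE M21, which need not be the transcript expressed.

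The balance of chains that share a trimer was compared for the abundant pairs. Type I collagen contains more α1 than α2 chains, yet per kilobase Col1a1 stood at 0.650 of Col1a2 in PreASKO cells (0.646 to 0.655) and at 0.538 in floxed cells (0.535 to 0.541), a shift of 1.21 times between the libraries. Col4a1 stood at 3.13 times Col4a2 in PreASKO (3.04 to 3.23) and at 2.84 times in floxed cells (2.78 to 2.91). The shift was 1.10 times, which became 1.07 times in raw counts alone. Col5a1 stood at 1.07 times Col5a2 in PreASKO (1.03 to 1.11) and at 1.23 times in floxed cells (1.20 to 1.26). Col6a1 stood at 0.435 of Col6a2 in PreASKO (0.424 to 0.445) and at 0.422 in floxed cells (0.415 to 0.429), with overlapping intervals. Col6a3 stood at 1.09 times Col6a1 in PreASKO (1.07 to 1.12) and at 1.17 times in floxed cells (1.15 to 1.19), a shift of 0.933 times, which became 0.576 times in raw counts alone. These quotients do not depend on library scaling. Most counts of Col5a1 and Col6a2 were repeat-distributed, whereas Col5a2 and Col6a1 had raw counts alone. Of the Col4a1 counts, 27.6% in PreASKO and 25.4% in floxed cells were repeat-distributed, whereas Col4a2 had raw counts alone.

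Genes that act on newly made collagen did not all follow the chains. Folding and modification genes were lower for 16 of 20 listed genes under library-total scaling, beside the 51.5% of 12982 genes with a ratio below 1, but only by a median ratio of 0.832. The prolyl hydroxylase subunit gene P4ha3, with a ratio of 0.426, and the prolyl isomerase gene Fkbp10, with 0.432, were the lowest. P4ha3, which is among the 16 lower genes, had 60 counts in PreASKO and 182 in floxed cells. It therefore passed the main count limit only through the floxed library, where it was high. Sparc, whose product binds procollagen, stood at 5916 CPM in PreASKO and 9447 CPM in floxed cells, with a ratio of 0.626. The 4 genes with a ratio above 1, Plod1, P4ha1, Plod3 and Colgalt1, all hydroxylases or a galactosyltransferase of the chains, had ratios of 1.03 to 1.29 and were picked out after their values were seen.

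Genes of procollagen processing and fibril cross-linking, not all of them enzymes, were lower throughout under library-total scaling. This held for all 11 genes with 100 or more counts, beside 51.5% of all genes, with a median ratio of 0.556. More than 2-fold lower were 3 of the 11, beside 8.0% of all genes, and 1 of these, Loxl4, reached 100 counts only in the floxed library. Lox, the cross-linking lysyl oxidase gene, stood at 17.5 CPM in PreASKO and 39.0 CPM in floxed cells, with a ratio of 0.448 (0.405 to 0.496). Its relative Loxl4 had 16 counts in PreASKO and 165 in floxed cells, with a ratio of 0.125 (0.0700 to 0.210). Pcolce2, which enhances procollagen cleavage, had a ratio of 0.478. The median ratio of the 15 stromal markers was 0.604.

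Of 8 collagen receptor genes, 5 had a ratio below 1 and 3 a ratio above 1 under library-total scaling, a count near the 51.5% of all genes below 1. Mrc2, an endocytic receptor that takes up collagen fragments, had 495 counts in PreASKO and 1973 in floxed cells, a ratio of 0.324 (0.293 to 0.358). The integrin gene Itga10 had 33 counts in PreASKO and 120 in floxed cells, a ratio of 0.355 (0.234 to 0.526). Itga10, which is among the 5 lower genes, thus passed the main count limit only through the floxed library, where it was high. Itga2, the α2 chain of a collagen-binding integrin found on platelets, epithelium and other cells, had 458 counts in PreASKO and 185 in floxed cells, a ratio of 3.20 (2.69 to 3.82). The other higher genes were Itgb1, the shared β1 chain, at a ratio of 1.20 and Lair1, an inhibitory receptor of leukocytes, at 1.17, both picked out after their values were seen.

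**Figure D5:**
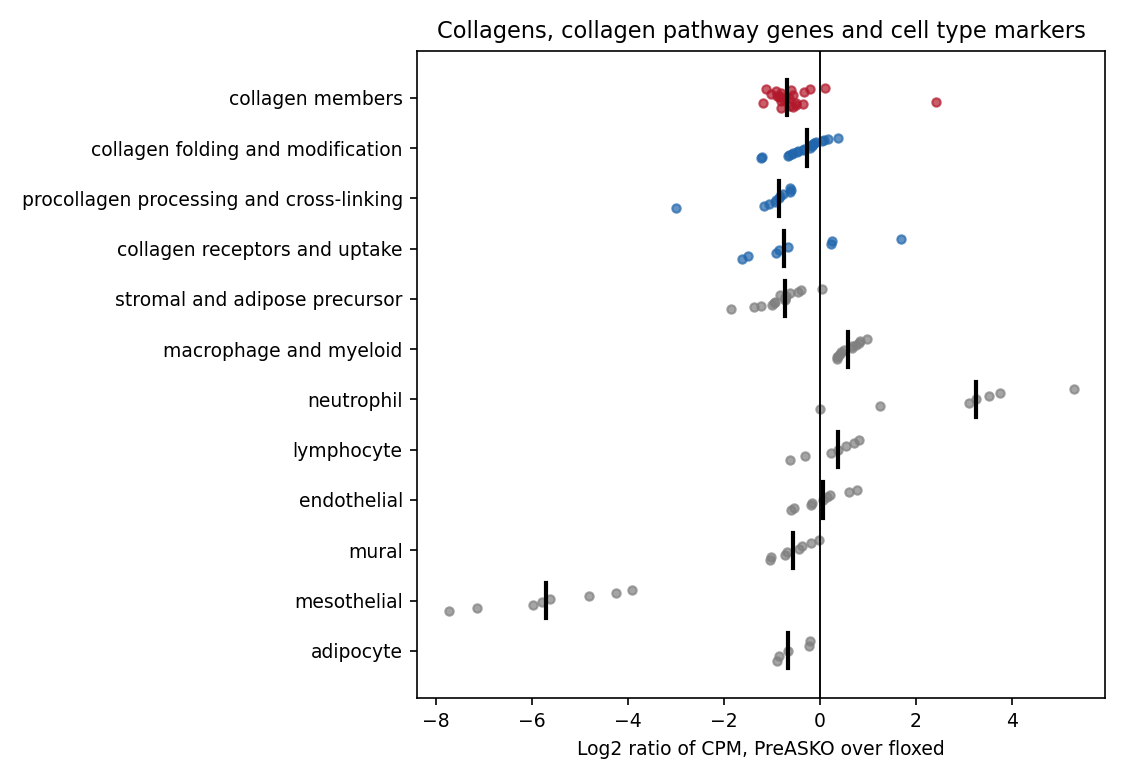
Log2 ratio of CPM, PreASKO over floxed, of each gene whose larger library gave at least 100 counts, for the 24 collagen chains, the collagen pathway lists and the cell type marker lists named on the axis; black bars are medians. The collagen median of -0.68 lies near the stromal list at -0.73 and the processing and cross-linking list at -0.85, while all 12 macrophage and myeloid genes lie above 0. Over all 12982 genes at the same limit, which are not drawn, 51.5% lie below 0.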

How the data were processed

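The deposited table lists 24862 genes with raw counts and repeat-distributed counts per library, per the file headers. The repeat-distributed values deposited by the authors are estimated counts, 99.7% of them within 0.01 of a whole number. The authors' deposited ratio (fold change) and its log2 run PreASKO over floxed, per the file headers. Reads were placed on mm10, per the submitters' processing notes. The sources used here name neither aligner nor counter. Tissue was minced, digested with collagenase and cells were stained for PDGFRa, per the labels' protocols. Columns were matched to samples by KO and WT in the titles.

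Raw and repeat-distributed counts were summed, rounded and divided by the library total (CPM). The repeat-distributed part was 50.6% of PreASKO and 49.1% of floxed counts, and its definition is not documented. Among the 38 chains, 10 had only raw counts, 14 only repeat-distributed counts and 14 both, so reads shared with other sequences could affect any of the last 28. Own log2 ratios lay within 0.01 of the authors' deposited log2 fold for 19 of the 24 chains whose larger library gave at least 100 counts. Intervals of ratios are exact conditional (Clopper-Pearson) and those of levels exact Poisson, at 95%. With 1 library per genotype no test was made; 2-fold, the limit of the series' design text, was used to name genes. All 38 chains, the 3 pathway genes with the largest log2 ratios per list and Sox9 were named by rule, together with some markers. The pathway genes Plod1, P4ha1, Plod3, Colgalt1, Itgb1 and Lair1 were named outside it, after their values were seen. Members, classes and lists were chosen with earlier results of these data known. Scaling to library total was compared with TMM in edgeR 4.0.16 under R 4.3.3 and other settings. The calculation was tested on simulated data. Positions, promoters (GRCm38.p6, RefSeq) and lengths (GENCODE M21) came from reference tables, whose version may differ from the authors'. Promoter windows were matched for 31 of the 38 chains. Further tools were scipy 1.17.1, numpy 2.4.6, matplotlib 3.10.9 and pandas 2.3.3 in Python 3.11.15.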

Additional observations from a re-analysis of the deposited data

How the results depend on the processing

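The alternative that changed most was scaling to the stromal marker list in place of the library total. It left 10 of 24 chains lower, 0 more than 2-fold lower, and a median log2 ratio of 0.10, where the median over all genes moved to 0.76. The ratio of all collagen counts was then 1.01, and the fibrillar, basement membrane, beaded, FACIT and other sums were 1.0, 1.29, 1.01, 1.01 and 1.18. Chains that turned to a higher level had log2 ratios of 0.024 for Col6a2, 0.066 for Col6a1, 0.13 for Col6a6, 0.16 for Col16a1, 0.18 for Col15a1, 0.21 for Col12a1, 0.23 for Col1a1, 0.29 for Col4a2, 0.29 for Col20a1, 0.43 for Col4a1, 0.45 for Col5a3 and 0.57 for Col18a1. Collagen counts per stromal marker count had a ratio of 0.928 without Dcn and of 1.0 with Pdgfra and Pdgfrb alone. Without Dcn the fibrillar, basement membrane, beaded, FACIT and other sums were 0.916, 1.185, 0.921, 0.924 and 1.08.

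Under every other setting the ratio of all collagen counts stayed below 1, at 0.600 with TMM, 0.605 with median-of-ratios scaling, 0.567 without mitochondrial transcripts in the total, 0.606 in raw counts alone and 0.577 in repeat-distributed counts alone. Raw counts alone left 15 chains with 100 or more counts, of which 13 were lower, 1 more than 2-fold lower and 0 more than 2-fold higher. The chain more than 2-fold lower was Col6a3, from 67 raw counts in PreASKO and 247 in floxed cells, a small part of its counts. No share over all genes was computed for raw counts alone, so these counts have no background beside them. Among the 15 chains, Col5a3 turned to a log2 ratio of 0.47 from 100 counts in PreASKO and 96 in floxed cells. The class of other chains had a ratio of 1.03 in raw counts, most of them from Col8a1, with 235 in PreASKO and 283 in floxed cells. Col15a1 had only 1 raw count in PreASKO and 13 in floxed cells, and Col18a1 had 3 in PreASKO and 12 in floxed cells. That ratio therefore says little about the class. The basement membrane ratio was 1.27 times the fibrillar one in raw counts and 1.496 times in repeat-distributed counts alone. With 10 or more counts as the limit, 8 of 33 chains were more than 2-fold lower, beside 18.2% of all genes. Of those 8, Col4a3, Col4a4, Col24a1, Col17a1 and Col8a2 reached 10 counts only in the floxed library. At that limit 2 were more than 2-fold higher, beside 9.08%. With 1000 or more, 0 of 19 were more than 2-fold higher, a share not computed over all genes. With no limit, 8 of 35 chains with counts in both libraries were more than 2-fold lower and 3 higher. These include chains such as Col10a1, with 2 counts in PreASKO and 1 in floxed cells. No share over all genes was computed without a limit, so those counts are not read as a result about collagens. The authors' deposited fold gives no sums. The cause of these differences was not tested. No paired analysis was possible because each genotype has 1 library, which also means that none could be left out. Depth limits the 14 chains under 100 counts.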
